A study of Mus musculus with 10 samples.

Results

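B cells that secrete IL-10 were compared with total B cells from the mouse spleen, across every gene the arrays detected in either population. IL-10 is an anti-inflammatory cytokine, and B cells that release it are known as regulatory B cells. The comparison used 7 of the 10 arrays of the series, 5 from IL-10+ cells and 2 from total B cells. A probe was a member when its detection score exceeded 0.99 on at least 2 of these 7 arrays, which held for 16152 of 45281 probes and gave 10947 genes. The other 3 arrays held IL-10- cells, whose levels are given beside the others for orientation.

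All samples came from spleens of C57BL/6 mice, with no altered allele named, and the age and sex of the mice are not given in the labels. The treatment stated for every sample lasted 5 h and combined 10 µg/ml of LPS, 50 ng/ml of PMA and 500 ng/ml of ionomycin. IL-10+ and IL-10- cells were separated after it by a kit that captures secreted IL-10 on the cell surface, followed by flow sorting. Total B cells carry the same treatment text, and the labels name no sort for them. The labels do not say how they relate to the sorted cells. For Txnip, Atf3, Fosb and Nfkbib both total B arrays lay below every array of both sorted fractions. For Irs2, Ifitm2, Ern1 and Cebpg both lay above every such array. The share of all genes with either pattern was not counted. LPS acts through a toll-like receptor, and PMA with ionomycin activates protein kinase C and calcium signalling, which bypasses the B cell receptor. No label says whether replicates came from separate mice. The p-values therefore measure only how much these samples vary, which may be technical. Since RNA was taken from bulk cells, fewer cells of a type and less RNA per cell cannot be told apart.

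In the spleen most B cells are follicular, while marginal zone B cells and B-1 cells are smaller populations that respond quickly to microbial products. IL-10 production is best known from the marginal zone and B-1 compartments and from activated cells on the way to plasmablasts. The gene lists are drawn from these cell states and from the pathways that the stimulus engages. They were chosen with earlier results of these data known, so the shares of a list describe its members and test nothing.

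Every IL-10+ array of replicates 1 to 3 lay on slide 1, while replicates 4 and 5 and both total B arrays lay on slide 2. From 14389 to 15610 probes were detected on an array, and precision is limited by how few arrays there are. IL-10+ arrays averaged 14990 ± 428 detected probes (SD, n = 5) and total B arrays 14688 ± 423 (SD, n = 2), and the difference was 301.6 (two-sided exact permutation test, p = 0.429, where 21 splits allow no p below 0.0476). Within slide 2 the difference was 43. Across genes, which share arrays and so are no replicates, log2 levels correlated at 0.980 to 0.991 among IL-10+ arrays, at 0.937 to 0.959 between IL-10+ and total B arrays and at 0.986 within the total B pair.

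Il10 itself, whose product set the sort, checks the labels and is not a finding. Its log2 intensity was 12.90, 13.65, 13.20, 13.04 and 13.12 on the IL-10+ arrays, 7.92, 7.77 and 7.55 on the IL-10- arrays, and 10.63 and 9.89 on the total B arrays. All 5 IL-10+ arrays lay above both total B arrays, which in turn lay above all IL-10- arrays. The change was 2.92 ± 0.24 log2 (SE, n = 5 and 2), equal to 7.59-fold (limma adjusted p 5.02e-05), and it was 2.82 within slide 2.

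Of the 10947 genes, 2530 (23.1%) passed an adjusted p of 0.05, with 1356 (12.4%) higher and 1174 (10.7%) lower in IL-10+ cells. No overlap between the groups' arrays was seen for 4760 genes (43.5%), among them 2521 of those that passed. A fitted change of at least 2-fold was seen for 621 of the higher and 441 of the lower genes. Of the 2530, 261 were undetected on both total B arrays, 37 of these without rising above background, and 100 were undetected on all IL-10+ arrays. A gene could enter through 2 of the 5 IL-10+ arrays alone, but through total B arrays alone only when both detected it. With no filter 1098 genes were higher and 1087 lower. The median change over all genes was -0.0056 log2. Within slide 2, 1683 of the 2530 passed again, and with slide as a block 2051 did. The sign was the same within slide 2 for all 2530 and for 88.3% of the 8417 other genes, but both total B arrays and 2 of the 5 IL-10+ arrays enter both fits, so a shared sign is largely built in. Leaving out a total B array cost more than leaving out any IL-10+ array: 1037 genes passed without total B replicate 1 and 1303 without total B replicate 2.

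**Figure D1:**
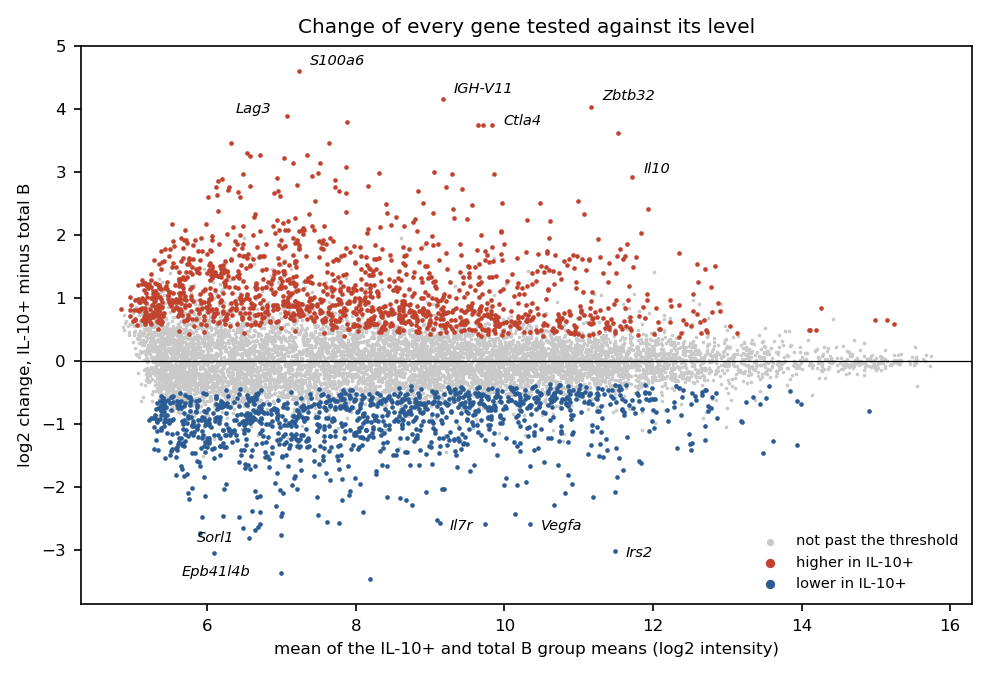
Change of each of the 10947 genes (y axis, log2, IL-10+ minus total B cells) against the mean of the group means (x axis, log2 intensity). Red points mark the 1356 genes higher and blue points the 1174 genes lower in IL-10+ cells, and grey points did not pass. Rises reach further from 0 than falls, up to a fitted 4.60 for S100a6, not well above background in total B cells, and down to -3.35 for Epb41l4b, detected on 1 of 5 IL-10+ arrays, among the genes labelled.

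The transcription factor Zbtb32, a BTB zinc finger repressor of lymphocytes, was among the leading rises. Its log2 level was 13.36, 13.22, 12.998, 12.99 and 13.34 on the IL-10+ arrays, 10.42, 10.67 and 10.55 on the IL-10- arrays, and 8.85 and 9.45 on the total B arrays. The IL-10+ arrays lay within a narrow band far above both total B arrays, with the IL-10- arrays between them. Zbtb32 rose by 4.03 ± 0.18 log2 (SE), which is 16.3-fold (adjusted p 1.95e-06).

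S100a6, a small calcium-binding protein, was not well above background on the total B arrays. Its level was 10.08, 8.83, 9.10, 9.52 and 10.14 on the IL-10+ arrays, 6.15, 6.33 and 6.88 on the IL-10- arrays, and 5.05 and 4.82 on the total B arrays. It rose at least 15.5-fold. This bound sets the IL-10+ mean against the lowest detected signal of each total B array, or the probe's own signal if higher. The limma adjusted p of 3.56e-05 belongs to the fitted change of S100a6, 4.60 log2, and not to the bound. The same kind of bound is meant wherever "at least" stands before a fold, and an adjusted p beside it belongs to the fitted change. Some genes were detected on part of a group's arrays only, so part of their values lie near background. Cdkn2b, Klf4, Cxcl10, Egr4, Ifih1, Ifit3, Lgals1, Slc30a1, Cd2, Ankrd37, Hspb1 and Insr were detected on 1 of 2 total B arrays, Itgb7 and Hk1 on 4 of 5 and Cd3g and Pik3ip1 on 3 of 5 IL-10+ arrays. IGH-V11, a heavy chain variable gene known from the antibodies of B-1 cells, had levels of 10.76 to 11.95 on the IL-10+ arrays, 4.94 to 6.26 on the IL-10- arrays, and 6.88 and 7.31 on the total B arrays. It rose by 4.15 ± 0.38 log2 (SE), or 17.7-fold.

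Lag3, an inhibitory receptor that binds MHC class II, was at 9.47, 9.73, 9.48, 8.23 and 8.18 on the IL-10+ arrays, 7.57, 7.79 and 6.79 on the IL-10- arrays, and 5.59 and 4.67 on the total B arrays. No IL-10+ array came near the total B arrays, but the IL-10+ arrays of slide 1 lay above those of slide 2. Lag3 rose 14.8-fold, by 3.89 ± 0.47 log2 (SE, adjusted p 0.000377), and by 3.07 within slide 2. It was detected on 1 of 2 total B arrays, and the rise was 3.40 with the other at its lowest detected signal. Ctla4, an inhibitory receptor for CD80 and CD86, was at 12.15, 11.32, 11.90, 11.77 and 11.41 on the IL-10+ arrays, 8.96, 9.68 and 8.51 on the IL-10- arrays, and 8.21 and 7.73 on the total B arrays. Its rise was 3.74 ± 0.31 log2 (SE), or 13.4-fold, with no overlap between the groups.

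Cdkn2b, the inhibitor p15 of cyclin D kinases, rose by 3.80 ± 0.31 log2 (SE), with levels of 9.26 to 10.15 on the IL-10+ arrays, 5.58 to 6.53 on the IL-10- arrays, and 6.40 and 5.56 on the total B arrays. The tubulin Tubb6 rose by 3.74 ± 0.23 log2 and Lysmd2, a protein with a peptidoglycan-binding type of domain, by 3.46 ± 0.12 (SE). Lysmd2 had the smallest adjusted p of the leading rises, 2.44e-07. The remaining leading rises covered receptors and signalling proteins. Il5ra, the specific chain of the IL-5 receptor, was at least 6.04-fold higher. Rap1gap, which switches off the small GTPase Rap1, was at least 8.33-fold, the recycling endosome adaptor Rab11fip4 at least 6.80-fold and Gramd1b, a carrier of cholesterol between membranes, at least 6.17-fold higher. Dusp14, a phosphatase of MAP kinases, rose by 3.27 log2 and is described with its pathway, as were the interferon genes Cxcl10 (3.13) and Ifit2 (3.07).

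Among the falls, Irs2, the adaptor that links insulin and IL-4 receptors to PI3 kinase, was measured well above background in every sample. Its level was 9.32, 10.36, 9.79, 9.97 and 10.46 on the IL-10+ arrays, 12.04, 11.64 and 11.13 on the IL-10- arrays, and 13.20 and 12.78 on the total B arrays. The highest IL-10+ array remained below the lowest IL-10- array, and all IL-10- arrays were below both total B arrays. Irs2 fell by 3.01 ± 0.32 log2 (SE), 8.07-fold, with an adjusted p of 0.000177.

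Epb41l4b, a band 4.1 family protein of the cell cortex, was detected on 1 of 5 IL-10+ arrays, with levels of 4.98 to 6.14 on the IL-10+ arrays, 7.12 to 8.04 on the IL-10- arrays, and 9.06 and 8.29 on the total B arrays. The fitted change was -3.35 ± 0.34 log2 (SE), and it was -3.06 with undetected arrays at their lowest detected signal. Sorl1, a sorting receptor of the endosome, was not well above background on the IL-10+ arrays and was at least 5.49-fold lower there. Sox4, a transcription factor of early B cell development, was at 4.93 to 5.80 on the IL-10+ arrays, 6.94 to 7.52 on the IL-10- arrays, and 8.03 and 7.95 on the total B arrays. The fitted change was -2.63 ± 0.23 log2 (SE), with detection on just 1 of 5 IL-10+ arrays, and -2.39 with undetected arrays at their lowest detected signal. The IL-7 receptor chain Il7r, which developing lymphocytes need for survival, was at 8.13, 7.25, 7.63, 7.91 and 8.37 on the IL-10+ arrays, 8.94, 8.69 and 10.00 on the IL-10- arrays, and 10.51 and 10.33 on the total B arrays. It fell by 2.56 ± 0.36 log2 (SE).

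Vegfa, the vascular growth factor, fell by 2.58 ± 0.33 log2 (SE), on arrays that did not overlap. It was at 8.81 to 9.30 on the IL-10+ arrays, against 12.33 and 10.95 on the total B arrays, which differed from each other, and without total B replicate 1 the fall was 1.89 log2. Further falls were those of Cables1, a cyclin-dependent kinase adaptor (at least 4.30-fold), of Abraxas1, a scaffold of the BRCA1-A repair complex (at least 4.44-fold), of the actin-severing Scin (at least 3.36-fold) and of Tmem51 (at least 3.14-fold). Total B replicates 1 and 2 were at 8.58 and 6.66 for Cables1, and without total B replicate 1 its fitted fall was 2.09 log2 against 3.05 with all arrays. Rab5b, a GTPase of early endosomes, fell by 2.57 log2 and Lonrf3 by 2.55. Nme7 fell by 2.43 log2 on the probe used, but 5 of its further probes had the opposite sign, so its direction is uncertain.

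**Figure D2:**
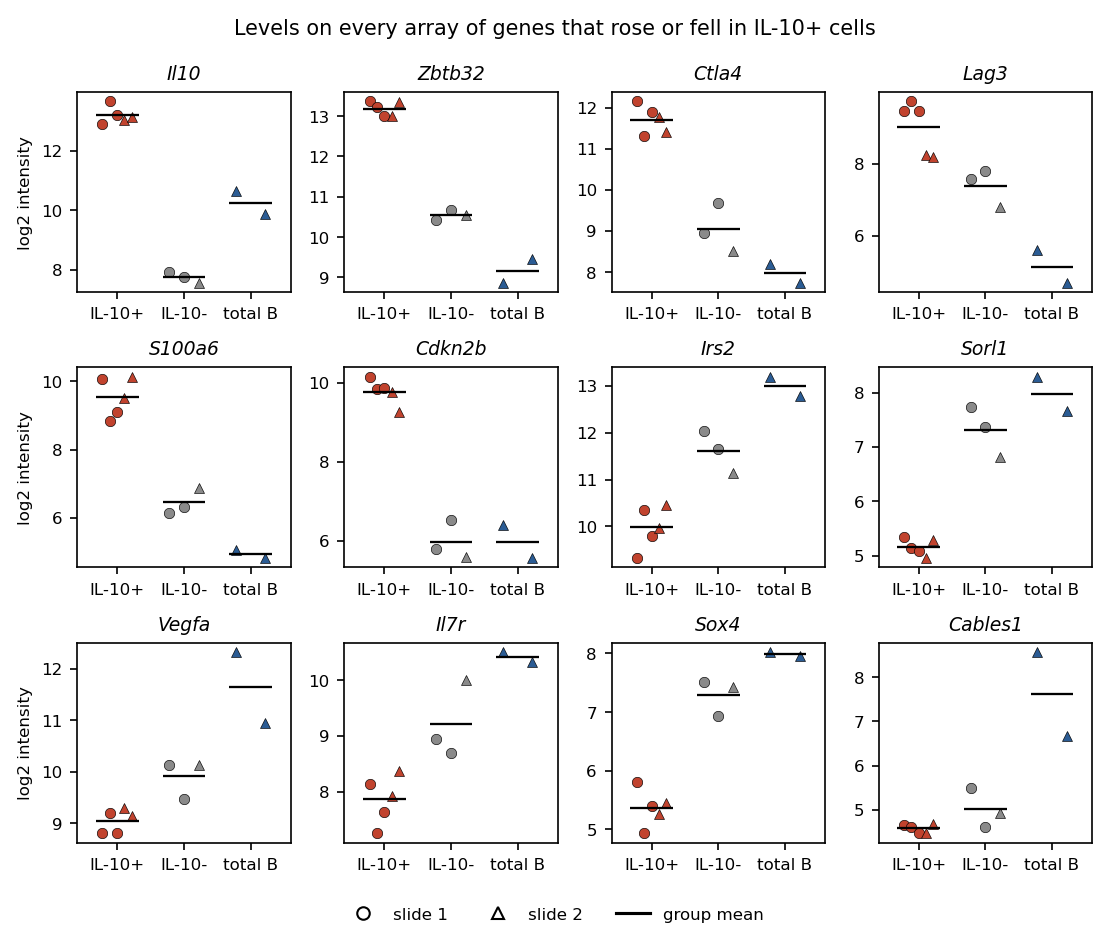
Log2 intensity (y axis) of 12 genes on each array of IL-10+, IL-10- and total B cells (x axis). Circles are arrays of slide 1, triangles arrays of slide 2, and lines group means. In each panel the 5 IL-10+ arrays lie apart from the 2 total B arrays, and the IL-10- arrays lie between them for Zbtb32, Ctla4, Lag3, S100a6, Irs2, Vegfa, Il7r and Sox4.

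Genes described in regulatory B cells were mostly higher. Of 20 in the list 16 were measured, and 11 rose (68.8%) and 1 fell (6.25%), against 12.4% higher and 10.7% lower over all genes, with a median change of 1.499 log2, or 1.29 with undetected genes at their bounds. The same shares over all genes apply to each list that follows. Without total B replicate 1 or 2, 8 and 6 passed as higher. Besides Lag3 and Ctla4, the tetraspanin Cd9 rose by 2.50 ± 0.23 log2 (SE), with levels of 11.25 to 12.09 on the IL-10+ arrays, 8.88 to 9.54 on the IL-10- arrays, and 9.34 and 9.11 on the total B arrays. Total B and IL-10- arrays overlapped for Cd9, unlike for Lag3. Fcrl5, an inhibitory receptor of the Fc receptor-like family, was at least 3.57-fold higher. Nt5e, the adenosine-producing enzyme CD73, rose by 2.12 log2, the fibrinogen-like immune suppressor Fgl2 by 2.07, and Ebi3, a subunit of IL-27 and IL-35, by 1.87. Its partner Il12a rose by 0.87, Cd80 by 1.24 and Havcr1, the receptor TIM-1, by 0.96. Cd274, which encodes PD-L1, fell by 0.96. Its relative Pdcd1lg2 was at -1.01 without passing, and Prdm1, the regulator of plasma cell fate, was at 0.21 without passing. Nt5e, Cd274, Il12a, Havcr1, Cd80 and Fgl2 each lost the call without one or the other total B array, with a highest adjusted p of 0.0502 to 0.275.

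B-1 cell genes moved the same way, with 12 of 15 measured members (80%) higher and none lower, and a median of 1.56 log2. Several of these are shared with the lists above, namely S100a6, Zbtb32, Ctla4, Cd9 and Fcrl5. Others were the scramblase Plscr1 (1.93 log2), the phosphatase Ptpn22 (1.69), Anxa2 (1.48), Tnfrsf13b, the receptor TACI (1.25), and the Ras activator Rasgrp1 (1.05, a call lost without total B replicate 2 at adjusted p 0.0655). Of 11 measured marginal zone genes 6 rose (54.5%) and 2 fell (18.2%). Mzb1, a chaperone of immunoglobulin assembly in the endoplasmic reticulum, was at 12.50, 12.43, 12.10, 11.97 and 12.34 on the IL-10+ arrays, 10.83, 10.26 and 9.86 on the IL-10- arrays, and 10.07 and 9.38 on the total B arrays. It rose 5.81-fold. Cd1d1, which presents lipids to NKT cells, was at least 2.51-fold higher. Cr2, the complement receptor CD21, was at -0.59 without passing. Gpr183, the oxysterol receptor that positions B cells at the edge of follicles, fell by 1.52 ± 0.18 log2 (SE), at 10.21 to 10.77 on the IL-10+ arrays, 11.86 to 12.31 on the IL-10- arrays, and 12.03 and 12.13 on the total B arrays.

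Follicular B cell genes were mixed, with 1 higher (7.69%) and 4 lower (30.8%) of 13 measured, and their median was 0.17 log2 with all arrays and -0.04 within slide 2. Satb1, a chromatin organiser, fell by 1.33 log2, Fcer2a, the IgE receptor CD23, by 1.15, the chromatin factor Zfp318 by 1.06 and the chemokine receptor Ccr7 by 0.64. Fcer2a was at 8.88 to 9.89 on the IL-10+ arrays, 11.55 to 12.09 on the IL-10- arrays, and 10.51 and 10.37 on the total B arrays, so total B cells lay between the fractions. Only Itgb7, an integrin chain for homing to gut, rose, at least 1.28-fold. Fcer2a, Zfp318, Ccr7 and Itgb7 each lost the call without one or the other total B array, with a highest adjusted p of 0.108 to 0.247. Foxo1, Bach2 and Cxcr5 had changes of 0.19, 0.17 and -0.09 without passing. Of 5 measured germinal centre genes none passed, Bcl6 being at -0.42 and Fas at -0.76.

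Plasmablast genes rose in 5 of 14 (35.7%) and fell in 2 (14.3%). Besides Mzb1 these were Ly6c1, a GPI-anchored surface protein (2.08 log2), Fkbp11, a secretory prolyl isomerase (1.84), Xbp1, the transcription factor of the secretory programme (0.64), and the disulfide isomerase Txndc5 (0.62). Slamf7 fell by 1.01 and Cd93 by 0.98. Ly6c1 spread widely in IL-10+ cells, at 9.56, 6.69, 7.68, 8.91 and 8.72, against 6.37 and 6.09 in total B cells, and its adjusted p was 0.169 without total B replicate 2. Irf4 and Pou2af1, transcription factors of the plasma cell path, were at -0.47 and -0.22 without passing. Of 7 genes listed as immunoglobulin genes, Ighm rose by 0.64 and Igkc by 0.59, while Vpreb3 fell by 1.28. These are 28.6% higher and 14.3% lower, against 12.4% and 10.7% of all genes. Ighm was at 14.89 to 15.58 on the IL-10+ arrays, 14.18 to 14.39 on the IL-10- arrays, and 14.81 and 14.53 on the total B arrays. Without total B replicate 1 the Vpreb3 change was -0.59, with an adjusted p of 0.328, and 2 of 5 IL-10+ arrays detected it. Ighm and Igkc did not pass without total B replicate 2 (adjusted p 0.228 and 0.122). Xbp1, Txndc5 and Cd93 each lost the call without one or the other total B array, with a highest adjusted p of 0.0718 to 0.24.

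Endoplasmic reticulum genes were higher in 7 of 28 (25%) and lower in 1. Sel1l, a part of the degradation machinery, rose by 1.22 log2 with 1 further probe of opposite sign, the stress kinase Eif2ak3 by 0.97, and Sdf2l1 by 0.77. The chaperones Hsp90b1 and Hspa5 rose by 0.62 and 0.61. Ern1, the sensor that activates Xbp1, fell by 0.95, with levels of 7.32 to 7.999 on the IL-10+ arrays, 7.31 to 7.82 on the IL-10- arrays, and 8.64 and 8.56 on the total B arrays. Hsp90b1, Hspa5, Eif2ak3, Sdf2l1 and Ern1 each lost the call without one or the other total B array, with a highest adjusted p of 0.0648 to 0.208.

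B cell identity genes rose in 3 of 20 (15%) and fell in 2 (10%), close to the 12.4% and 10.7% of all genes. Ikzf3, the zinc finger factor Aiolos, rose by 1.43 log2, although without total B replicate 2 the change was 0.93 with an adjusted p of 0.199, and it was detected on 1 of 2 total B arrays (a rise of 1.21 with the other at its lowest detected signal). Ms4a1, which encodes CD20, rose by 0.66, and the kinase Syk was at least 1.35-fold higher. Ciita, the master regulator of MHC class II, fell by 1.43 ± 0.20 log2 (SE), at 9.20 to 9.75 on the IL-10+ arrays, 10.03 to 10.61 on the IL-10- arrays, and 11.03 and 10.82 on the total B arrays. Cd79b, a signalling chain of the B cell receptor, fell by 0.71. Ms4a1, Syk and Cd79b each lost the call without one or the other total B array, with a highest adjusted p of 0.0652 to 0.199.

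**Figure D3:**
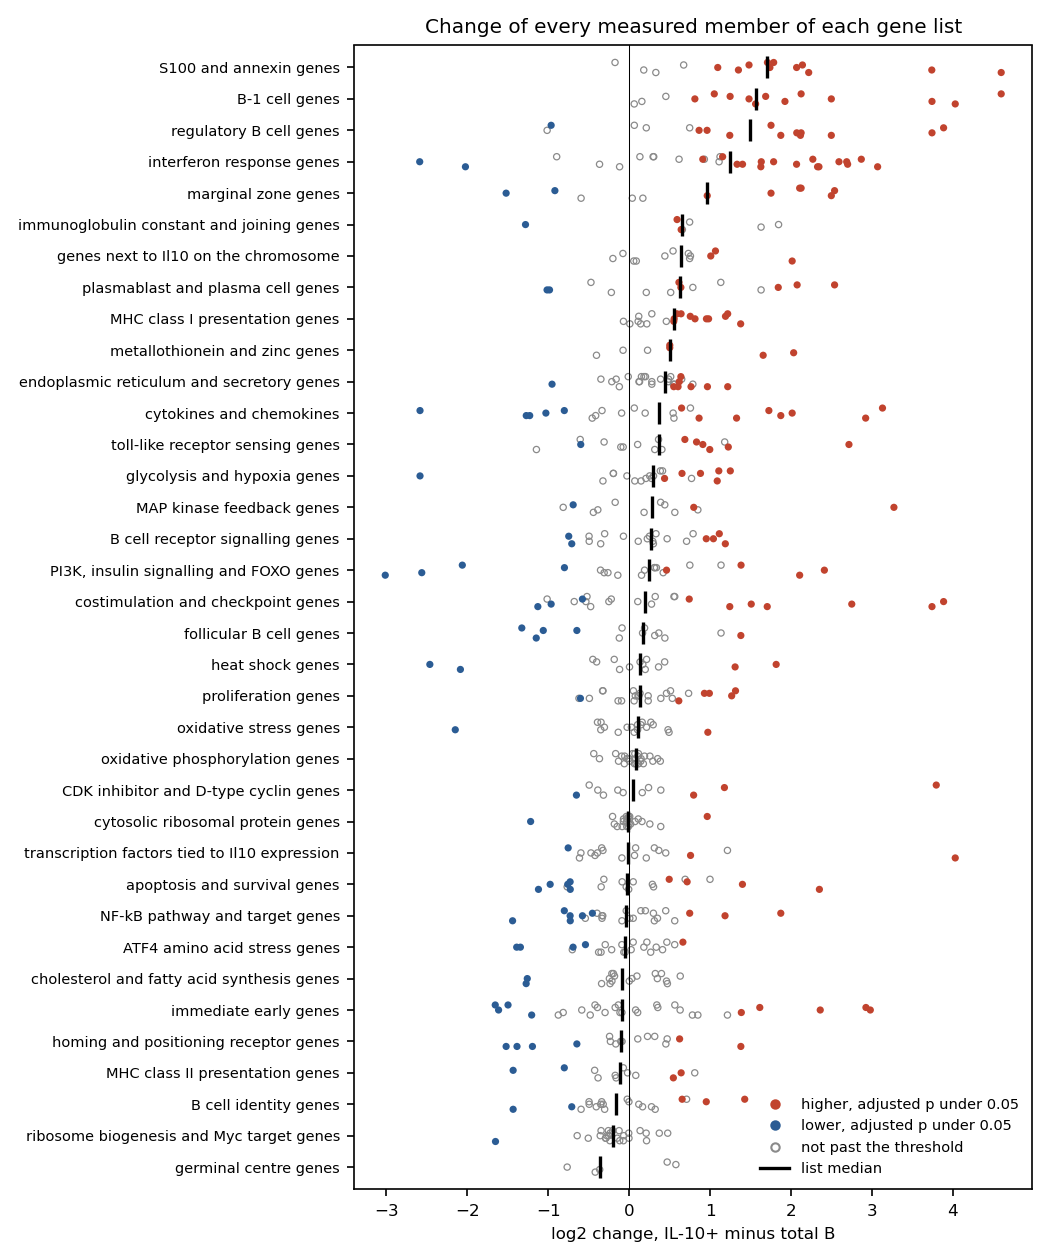
Log2 change, IL-10+ minus total B cells (x axis), of every measured member of each gene list with 5 or more measured members (y axis), ordered by median. Filled red points rose, filled blue points fell, open points did not pass, and bars mark medians. The S100 and annexin list has the highest median, 1.71, and the germinal centre list the lowest, -0.36.

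The list of S100 proteins and annexins, which bind calcium and membranes, also holds the cytoskeletal Vim and Tubb6, the galectins and Ahnak. It had the highest median, 1.71 log2, and 11 of 15 rose (73.3%), with Tubb6, Vim, Ahnak and Lgals1 among the 11, and none fell. Besides S100a6 and Tubb6, the giant scaffold Ahnak rose by 2.14 ± 0.38 log2 (SE), the galectin Lgals1 by 2.07, Anxa6 by 1.79, S100a10 by 1.74 and S100a11 by 1.71. Vim, the intermediate filament vimentin, was at 8.07, 7.55, 7.71, 8.18 and 9.51 on the IL-10+ arrays, 6.95, 6.57 and 7.74 on the IL-10- arrays, and 5.99 and 5.97 on the total B arrays. Its groups did not overlap and its rise was 2.22 ± 0.47 log2 (SE, adjusted p 0.0071), but the adjusted p was 0.0601 without total B replicate 1. For 6 of the 15 genes both IL-10+ arrays of slide 2 lay above all 3 of slide 1, against 12.7% of all genes.

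Of 28 measured interferon response genes 16 rose (57.1%) and 2 fell (7.14%), with a median of 1.25 log2. These genes are induced through STAT factors and encode antiviral proteins. Ifit2, an inhibitor of translation of viral RNA, was at 10.28, 10.06, 10.00, 8.44 and 8.27 on the IL-10+ arrays, 7.98, 8.28 and 6.77 on the IL-10- arrays, and 6.80 and 5.87 on the total B arrays. All IL-10+ arrays lay above both total B arrays, and within each sorted fraction the arrays of slide 2 were the lowest. Ifit2 rose by 3.07 ± 0.61 log2 (SE, adjusted p 0.00547), and by 2.01 within slide 2.

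The same slide pattern was measured for Ifit3, another RNA-binding member of the family, at 9.39, 9.02, 8.50, 7.21 and 7.37 on the IL-10+ arrays, 7.65, 8.15 and 6.79 on the IL-10- arrays, and 5.70 and 5.52 on the total B arrays. Ifit3 rose by 2.69 ± 0.57 log2 (SE, adjusted p 0.00747), and by 1.68 within slide 2. For 12 of 28 interferon genes all IL-10+ arrays of slide 1 lay above those of slide 2, against 11.5% of all genes, with a median difference of 0.68 log2 between the slides. The list's median change was 1.05 within slide 2, where 14 of the 28 passed as higher, against 10.9% of all genes. The part of the slide in these values was not tested further.

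Ifih1, the cytosolic RNA sensor MDA5, was at 9.61, 9.50, 9.63, 8.94 and 8.08 on the IL-10+ arrays, 6.64, 6.98 and 5.21 on the IL-10- arrays, and 6.94 and 5.63 on the total B arrays. It rose by 2.87 ± 0.55 log2 (SE), and here IL-10- and total B arrays overlapped. Rsad2, the antiviral enzyme viperin, rose by 2.70, the guanylate-binding proteins Gbp3 and Gbp2 by 2.35 and 2.27, Oasl1 by 2.33 and Mx2 by 2.07. Gbp2 was at 10.16, 10.10 and 9.83 on the IL-10+ arrays of slide 1 and at 11.55 and 10.69 on those of slide 2, against 7.83 and 8.55 on the total B arrays. Its IL-10+ arrays of slide 2 were the higher ones, the reverse of Ifit2. Without total B replicate 1, 9 genes of the interferon list passed as higher, and without total B replicate 2, 6 did. Without total B replicate 2 the calls of Ifit2, Ifih1, Rsad2 and Ifit3 were lost, at adjusted p 0.0673, 0.0644, 0.0547 and 0.0619. Those of Gbp2, Mx2 and Ifit3 were lost without total B replicate 1, at 0.089, 0.17 and 0.0568. Irf7, Usp18 and Irf9, regulators of the response, were at 1.11, 0.93 and 0.30 without passing.

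The 2 members that fell were Ifitm2 and Ifitm1, membrane proteins that block viral entry. Ifitm2 was at 8.80, 8.33, 8.45, 8.58 and 8.08 on the IL-10+ arrays, 10.14, 10.23 and 9.91 on the IL-10- arrays, and 11.13 and 10.93 on the total B arrays. The groups were ordered without overlap, and Ifitm2 fell by 2.59 ± 0.19 log2 (SE), 6.01-fold, with an adjusted p of 2.86e-05. Ifitm1 fell by 2.02, and Ifitm3, the third of the cluster, was at -0.89 without passing.

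Promoters of interferon genes carry a response element with the core GAAANNGAAA, to which IRF and STAT complexes bind. The 250 bases before the start of each gene were searched for this core on both strands, in promoters from RefSeq (GRCm38.p6), which matched 22 of the 28 measured genes by symbol. It was found in 9 of these 22 (40.9%), against 936 of 27025 genes in the table (3.46%) and 237 of 7027 genes tested that it holds (3.37%), where a gene counted when any of its promoter windows held the core. It was found for 5 of 13 genes that rose, for 1 of 2 of those that fell and for 3 of 7 of those that did not pass. The promoters of 4 genes that rose (Cxcl10 comes from the list of cytokines) and of Ifitm2, which fell, follow 5′ to 3′ on the strand of the gene, with the core or its reverse complement in capitals.
Ifit3, chr19:34583279-34583528, plus strand: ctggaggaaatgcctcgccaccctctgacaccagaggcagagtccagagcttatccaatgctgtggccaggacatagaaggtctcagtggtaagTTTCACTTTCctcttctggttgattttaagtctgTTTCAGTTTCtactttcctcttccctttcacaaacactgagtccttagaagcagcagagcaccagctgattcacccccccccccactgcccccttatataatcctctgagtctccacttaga
Gbp2, chr3:142620413-142620662, plus strand: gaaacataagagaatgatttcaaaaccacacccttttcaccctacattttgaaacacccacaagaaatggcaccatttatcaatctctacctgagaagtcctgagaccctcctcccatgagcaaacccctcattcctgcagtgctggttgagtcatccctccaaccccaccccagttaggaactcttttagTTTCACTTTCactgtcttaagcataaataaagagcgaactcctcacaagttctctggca
Rsad2, chr12:26456453-26456702, minus strand: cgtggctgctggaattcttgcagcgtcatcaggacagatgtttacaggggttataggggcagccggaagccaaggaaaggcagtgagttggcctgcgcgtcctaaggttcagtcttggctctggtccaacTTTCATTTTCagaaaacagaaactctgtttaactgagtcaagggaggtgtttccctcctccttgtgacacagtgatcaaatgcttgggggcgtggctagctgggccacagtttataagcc
Cxcl10, chr5:92348890-92349139, minus strand: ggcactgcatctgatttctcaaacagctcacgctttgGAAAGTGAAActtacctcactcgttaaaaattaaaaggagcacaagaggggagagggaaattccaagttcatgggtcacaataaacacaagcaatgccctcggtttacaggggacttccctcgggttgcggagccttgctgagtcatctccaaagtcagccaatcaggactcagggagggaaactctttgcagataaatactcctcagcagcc
Ifitm2, chr7:140955962-140956211, minus strand: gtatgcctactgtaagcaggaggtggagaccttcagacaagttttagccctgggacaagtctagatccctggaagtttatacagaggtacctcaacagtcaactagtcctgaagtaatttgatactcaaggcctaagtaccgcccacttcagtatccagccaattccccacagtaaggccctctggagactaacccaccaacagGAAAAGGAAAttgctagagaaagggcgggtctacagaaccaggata
Ifit3 holds 2 copies and the others 1 each, with the core of Ifitm2 nearest to the start among the 5. A match is a description of the letters in this window and not a binding site.

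**Figure D4:**
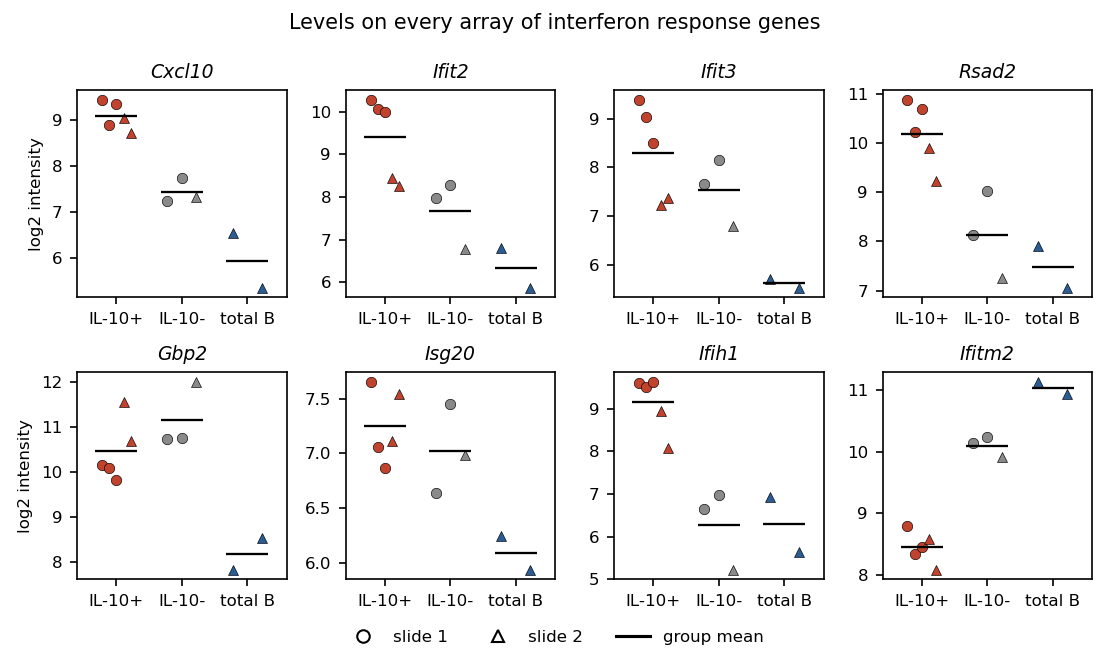
Log2 intensity (y axis) of 8 interferon response genes on each array of IL-10+, IL-10- and total B cells (x axis). Circles are arrays of slide 1, triangles arrays of slide 2, and lines group means. Cxcl10, Ifit2, Ifit3, Rsad2, Gbp2, Isg20 and Ifih1 are higher on all 5 IL-10+ arrays than on both total B arrays and Ifitm2 is lower, and the triangles lie below the circles in IL-10+ cells for Ifit2, Ifit3, Rsad2 and Ifih1.

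Of 21 cytokine genes measured besides Il10, which set the sort, 7 were higher and 5 lower. With Il10 counted the shares were 36.4% higher and 22.7% lower, against 12.4% and 10.7% of all genes. Cxcl10, an interferon-induced chemokine for T cells, was at 9.44, 8.88, 9.35, 9.03 and 8.71 on the IL-10+ arrays, 7.23, 7.74 and 7.33 on the IL-10- arrays, and 6.54 and 5.36 on the total B arrays. It rose 8.76-fold, by 3.13 ± 0.30 log2 (SE), with no overlap. Il19, a relative of Il10, was at least 3.24-fold higher. Il2 rose by 1.73 and the chemokine Ccl5 by 1.33. Those that fell besides Vegfa were the chemokines Ccl3 (1.27), Cxcl16 (1.23) and Ccl4 (0.80) and the lymphotoxin Ltb (1.03). Tnf, Il1b and Il6, inflammatory cytokines of the LPS response, were at -0.33, -0.41 and 0.20 without passing. Il2, Ccl5, Ccl3, Cxcl16, Ccl4 and Ltb each lost the call without one or the other total B array, with a highest adjusted p of 0.0911 to 0.253.

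The genes next to Il10 on its chromosome were measured in 12 cases, of which 3 rose (25%) and none fell, against 12.4% and 10.7% of all genes. Il19 was at 7.09, 7.36, 7.23, 7.42 and 7.29 on the IL-10+ arrays and not well above background on any total B array, at 5.40 and 5.12. The IL-10- arrays, at 5.07, 5.28 and 4.66, overlapped the total B arrays or lay below them. Mapkapk2, the kinase that stabilises cytokine mRNA downstream of p38, rose by 1.07 ± 0.12 log2 (SE), and Rassf5, a Rap1 effector, by 1.01, with an adjusted p of 0.124 without total B replicate 2. Il24 had a change of 0.76 without rising above background, and the farther neighbours Eif2d and Yod1 were at 0.06 and -0.08.

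Costimulation and checkpoint genes rose in 7 of 22 (31.8%) and fell in 3 (13.6%). Cd70, the ligand of CD27, was at 7.97, 7.62, 7.64, 7.74 and 7.41 on the IL-10+ arrays, 4.53, 4.55 and 5.09 on the IL-10- arrays, and 4.96 and 4.89 on the total B arrays. It was not well above background on the total B arrays and was at least 4.26-fold higher. The limma adjusted p of 1.91e-05 belongs to the fitted change of Cd70, 2.75 log2, and not to this bound. Cd200, an inhibitory ligand for myeloid cells, rose by 1.71, with levels of 11.28 to 11.62 on the IL-10+ arrays, 11.31 to 12.06 on the IL-10- arrays, and 9.23 and 10.22 on the total B arrays, so both sorted fractions lay above total B cells. Tnfrsf18, the receptor GITR, was at least 2.55-fold higher. Slamf1 fell by 1.13 and Cd83 by 0.58, while Cd86 and Cd40 were at -0.25 and 0.56 without passing. Cd83 and Slamf1 each lost the call without one or the other total B array, with a highest adjusted p of 0.28 to 0.319.

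Of 18 transcription factors tied to Il10 expression, Zbtb32 and Creb1 rose (11.1%) and Batf fell (5.56%), against 12.4% and 10.7% of all genes. Batf, an AP-1 factor, fell by 0.75 log2 and Creb1, a target of cAMP signalling, rose by 0.76. Without total B replicate 2 the values were -0.59 for Batf and 0.47 for Creb1, with adjusted p of 0.137 and 0.120. Fos, Nfkb1, Irf4, Stat3 and Egr1 had changes of 1.22, 0.31, -0.47, -0.61 and 0.08 without passing.

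Of 29 immediate early genes, which respond within minutes to kinase signalling, 5 were higher (17.2%) and 4 lower (13.8%), near the 12.4% and 10.7% of all genes. For 11 of the 29 (37.9%) all IL-10+ arrays of slide 1 lay above those of slide 2, against 11.5% of all genes. Atf3, a stress-induced repressor, was at 10.50, 10.07, 9.86, 9.23 and 9.34 on the IL-10+ arrays, 9.81, 9.67 and 9.56 on the IL-10- arrays, and 7.30 and 6.34 on the total B arrays. Both sorted fractions lay above total B cells and overlapped each other, and Atf3 rose by 2.98 ± 0.34 log2 (SE). Fosb, an AP-1 subunit, was at 8.22 to 9.69 on the IL-10+ arrays, 9.66 to 10.41 on the IL-10- arrays, and 6.86 and 6.53 on the total B arrays, and it rose by 2.36, or by 1.748 within slide 2. Egr4 rose by 2.93, Klf6 by 1.62 and Klf4 by 1.39. Klf6 averaged 12.40 log2 in IL-10+, 12.39 in IL-10- and 10.79 in total B cells, and Klf4 averaged 6.69, 7.86 and 5.30. For Klf4 every IL-10- array lay above every IL-10+ array. Myc, the growth regulator, fell by 1.65 ± 0.33 log2 (SE), at 8.54 to 9.23 on the IL-10+ arrays, 9.09 to 10.60 on the IL-10- arrays, and 10.36 and 10.48 on the total B arrays. Its adjusted p was 0.0506 without total B replicate 2. Zfp36, which degrades cytokine mRNA, fell by 1.61, Fosl2 fell by 1.496 and Ier2 fell by 1.20. Egr1, Egr2 and Nr4a1 were at 0.08, -0.42 and -0.30 without passing. Zfp36, Klf4 and Ier2 each lost the call without one or the other total B array, with a highest adjusted p of 0.0961 to 0.211.

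Of 25 genes of ribosome biogenesis, Myc included, Myc alone passed, and the median was -0.20 log2. Of 23 ribosomal protein genes Rps20 rose by 0.97 (adjusted p 0.1 without total B replicate 2) and Rpl22 fell by 1.22, with a median of -0.0072. No gene of oxidative phosphorylation passed among 27, with the largest changes at 0.39 for Sdhd and -0.44 for Sdhc.

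NF-kB pathway genes rose in 3 of 25 (12%) and fell in 6 (24%). Nfkbib, an inhibitor that holds NF-kB in the cytosol, rose by 1.19 ± 0.15 log2 (SE), at 10.06 to 10.21 on the IL-10+ arrays, 10.49 to 11.005 on the IL-10- arrays, and 8.94 and 8.95 on the total B arrays. Bcl3, a nuclear cofactor of NF-kB, fell by 1.44, and its adjusted p was 0.0889 without total B replicate 1. The anti-apoptotic targets Birc3 and Cflar each fell by 0.73 and Relb by 0.45, whereas Nfkbia and Tnfaip3, feedback inhibitors, were at -0.09 and -0.33 without passing. Birc3 and Relb each lost the call without one or the other total B array, with a highest adjusted p of 0.225 to 0.4.

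MAP kinase feedback was led by Dusp14, at 8.98, 9.17, 9.36, 8.84 and 8.56 on the IL-10+ arrays, 8.21, 8.21 and 7.40 on the IL-10- arrays, and 5.74 and 5.68 on the total B arrays. It rose 9.67-fold, by 3.27 ± 0.26 log2 (SE), while Errfi1, an inhibitor of growth factor receptors, rose by 0.80 and Dusp7 fell by 0.69. So 2 of the 12 genes rose (16.7%) and 1 fell (8.33%), against 12.4% and 10.7% of all genes. The other 9 did not pass, Dusp6 being at 0.85 and Dusp2 at -0.81. Errfi1 and Dusp7 each lost the call without one or the other total B array, with a highest adjusted p of 0.138 to 0.2.

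In the PI3 kinase and insulin pathway 4 of 20 rose (20%) and 4 fell (20%). Txnip, a glucose-sensitive arrestin, was at 10.61, 10.11, 10.26, 10.76 and 10.86 on the IL-10+ arrays, 10.42, 10.36 and 11.20 on the IL-10- arrays, and 8.24 and 7.98 on the total B arrays. It rose by 2.41 ± 0.27 log2 (SE), with both sorted fractions above total B cells. Pik3cg, the catalytic subunit p110 gamma, rose by 2.11, the receptors Igf1r and Insr by 1.38 and 0.46. Besides Irs2 and Il7r, Pik3ip1, an inhibitor of PI3 kinase, fell by 2.06 and Pik3cd, the p110 delta subunit, by 0.80. Foxo1 was at 0.19 without passing. Igf1r, Insr and Pik3cd each lost the call without one or the other total B array, with a highest adjusted p of 0.145 to 0.345.

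Toll-like receptor genes rose in 6 of 17 (35.3%) and fell in 1 (5.88%). Tlr2, a sensor of bacterial lipoproteins, was at 7.70, 7.45, 7.78, 7.44 and 7.81 on the IL-10+ arrays, 6.45, 6.50 and 6.72 on the IL-10- arrays, and 4.93 and 4.91 on the total B arrays, where it was not well above background. It was at least 4.15-fold higher. Tlr7, a sensor of single-stranded RNA, rose by 1.23, the LPS response modulator Cd180 by 0.997 with a further probe of opposite sign, and its partner Ly86 by 0.91. The adaptors Tirap and Myd88 rose by 0.83 and 0.69, and the kinase Irak2 fell by 0.60. Irak2, Myd88, Cd180 and Tirap each lost the call without one or the other total B array, with a highest adjusted p of 0.0916 to 0.342.

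B cell receptor signalling genes rose in 4 of 20 (20%) and fell in 2 (10%), near the 12.4% and 10.7% of all genes. For 8 of the 20 (40%) all IL-10+ arrays of slide 1 lay above those of slide 2, against 11.5% of all genes, and the median was 0.27 log2 with all arrays and -0.05 within slide 2. The protein kinase C isoform Prkcb, which PMA activates, rose by 1.19 log2 and the inhibitory receptor Fcgr2b by 1.11. Neither passed without total B replicate 2, with adjusted p of 0.169 and 0.118. Vav1, an exchange factor, fell by 0.75 (adjusted p 0.0606 without total B replicate 2), and Btk, Blnk and Plcg2 were at -0.30, -0.49 and 0.25 without passing.

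Among homing receptors 2 of 16 rose (12.5%) and 4 fell (25%). Cxcr4, the receptor for CXCL12, was at 10.23, 10.82, 10.86, 11.002 and 11.14 on the IL-10+ arrays, 12.04, 10.95 and 12.04 on the IL-10- arrays, and 12.39 and 11.999 on the total B arrays. It fell by 1.38 ± 0.32 log2 (SE), a call lost without total B replicate 1 at adjusted p 0.113, and Cnr2, the cannabinoid receptor of immune cells, by 1.19 ± 0.16. Cxcr5 and Ccr6 were at -0.09 and 0.23 without passing.

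Antigen presentation genes were counted by class. Of 19 MHC class I genes 11 rose (57.9%) and none fell, with a median of 0.56 log2, and 5 and 8 rose when total B replicate 1 or 2 was left out. The immunoproteasome subunits Psmb8, Psmb10 and Psmb9 rose by 1.38, 1.22 and 0.98, the peptide editor Tapbpl by 1.19, the transporters Tap1 and Tap2 by 0.96 and 0.64, and the regulator Nlrc5 by 0.81. Psmb8 was at 10.56 to 10.94 on the IL-10+ arrays, 9.66 to 10.27 on the IL-10- arrays, and 9.53 and 9.31 on the total B arrays. The class I chains H2-K1 and B2m were at 0.14 and 0.22 without passing. Of 12 class II genes, the lysosomal reductase Ifi30 rose by 0.64 and the protease Ctss by 0.55, while H2-Ob, an inhibitor of peptide loading, fell by 0.80 and Ciita as given above. Each direction held 16.7% of the list, against 12.4% and 10.7% of all genes. The change of Ifi30 was 0.29 without total B replicate 2, with an adjusted p of 0.282. H2-Ab1, H2-Aa, H2-Eb1 and Cd74 lay between -0.16 and 0.08 without passing. Psmb10, Psmb9, Tap2, Ctss and H2-Ob each lost the call without one or the other total B array, with a highest adjusted p of 0.0777 to 0.232.

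Of 25 proliferation genes 5 rose (20%) and 1 fell (4%), with a median of 0.14 log2, and all 5 rises were lost when either total B array was left out. Tyms, the enzyme of thymidylate synthesis, rose by 1.32, the replication licensing factor Cdc6 by 1.27 and the transcription factor E2f1 by 0.99, and Ccne1 passed at 0.93 without rising above background. Mki67, Pcna and Top2a were at 0.06, 0.08 and 0.12 without passing, and Birc5 fell by 0.60. E2f1 was lost in most omissions of an array, with an adjusted p of 0.185 without total B replicate 1. Besides Cdkn2b, Ccnd2 rose by 1.18, at 13.21 to 13.69 on the IL-10+ arrays, 11.97 to 13.18 on the IL-10- arrays, and 12.02 and 12.37 on the total B arrays. Ccng1 rose by 0.80, Ccnd3 fell by 0.65, and Cdkn1a and Cdkn1b were at -0.32 and 0.39 without passing. Ccnd2, Ccng1, Ccnd3 and Birc5 each lost the call without one or the other total B array, with a highest adjusted p of 0.121 to 0.191.

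Of 20 survival genes 4 rose (20%) and 5 fell (25%), against 12.4% and 10.7% of all genes. Bcl2, the inhibitor of mitochondrial apoptosis, was at 9.49, 9.67, 9.64, 9.69 and 9.51 on the IL-10+ arrays, 8.81, 8.79 and 7.64 on the IL-10- arrays, and 7.43 and 7.07 on the total B arrays. It rose by 2.35 ± 0.28 log2 (SE), or 5.10-fold, without overlap. Its relative Bcl2l1 fell by 0.97 and the pro-apoptotic Bcl2l11 by 1.12, Bcl2l11 with a further probe of opposite sign. Bbc3, the pro-apoptotic PUMA, rose by 1.40 on the probe used, a further probe had the opposite sign, and without total B replicate 2 the change was 0.81, with an adjusted p of 0.286. Bcl2l1 and Bcl2l11 each lost the call without one or the other total B array, with a highest adjusted p of 0.0847 to 0.172.

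Of 15 heat shock genes the co-chaperone Bag3 rose by 1.82 and the small heat shock protein Hspb1 by 1.31, while the inducible chaperones Hspa1b and Hspa1a fell. Each direction held 13.3% of the list, near the 12.4% and 10.7% of all genes. Hspa1b, detected on 1 of 5 IL-10+ arrays, was at 4.68 to 5.58 on the IL-10+ arrays, 6.20 to 7.05 on the IL-10- arrays, and 7.65 and 7.24 on the total B arrays. Its fitted change was -2.46 log2, or -1.91 with undetected arrays at their lowest detected signal, and Hspa1a was at least 2.40-fold lower. The coding sequences of Hspa1a and Hspa1b are nearly identical, so their probes may share signal. Hsp90aa1 and Hspa8 were at 0.20 and 0.22 without passing. Hspb1 lost its call without total B replicate 2, at adjusted p 0.146. Of 19 oxidative stress genes 1 rose and 1 fell (5.26% each), against 12.4% and 10.7% of all genes. Gpx1 rose by 0.97 and Nfe2l2, the transcription factor NRF2, fell by 2.15. Nfe2l2 was at 6.51 to 8.07 on the IL-10+ arrays, 7.71 to 8.39 on the IL-10- arrays, and 9.72 and 9.28 on the total B arrays. Its targets Nqo1, Gclc and Txnrd1 were at -0.30, -0.35 and 0.11 without passing.

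Of 22 genes of the ATF4 amino acid response 1 rose (4.55%) and 4 fell (18.2%), against 12.4% and 10.7% of all genes. Asns, which makes asparagine, rose by 0.67, while Ddit3, the factor CHOP, fell by 1.39, Cebpg by 1.34, Sars by 0.69 and Mthfd2 by 0.54. Of 7 metallothionein and zinc genes 4 rose (57.1%) and none fell, against 12.4% and 10.7% of all genes, and 2 passed as higher within slide 2. Mtf1 and Slc39a10 each rose by 0.50 log2, but both lost the call without one or the other total B array. Without total B replicate 2 Mtf1 rose by 0.43, and without total B replicate 1 Slc39a10 rose by 0.44. Slc30a1, which exports zinc, rose by 2.03 ± 0.20 log2 (SE), at 7.73 to 8.26 on the IL-10+ arrays, 7.07 to 7.42 on the IL-10- arrays, and 6.20 and 5.59 on the total B arrays. Mt1, a metal-binding metallothionein, was at 11.38, 11.67, 11.43, 12.05 and 12.52 on the IL-10+ arrays, 7.26, 7.94 and 8.70 on the IL-10- arrays, and 10.77 and 9.53 on the total B arrays. It rose by 1.66 ± 0.44 log2 (SE, adjusted p 0.0204), but by 1.03 without total B replicate 2, with an adjusted p of 0.226. Mthfd2, Asns and Sars each lost the call without one or the other total B array, with a highest adjusted p of 0.112 to 0.314.

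In glycolysis and hypoxia 6 of 20 rose (30%) and Vegfa fell, and without total B replicate 1 or 2 only 1 and 2 rose. For 7 of the 20 (35%) all IL-10+ arrays of slide 1 lay above those of slide 2, against 11.5% of all genes. The glucose transporter Slc2a1 rose by 1.09 ± 0.15 log2 (SE), Ankrd37 by 1.25, Pdk1 by 0.88, Gapdh by 0.65 and Gpi1 by 0.44, and Hk1 was at least 1.18-fold higher. Ankrd37, Pdk1, Gpi1, Hk1 and Gapdh each lost the call without one or the other total B array, with a highest adjusted p of 0.101 to 0.169. Of 18 lipid synthesis genes none rose, and the desaturases Scd1 and Sc5d fell, Scd1 by 1.26 log2 and Sc5d at least 1.77-fold. The 11.1% that fell are near the 10.7% of all genes. Fasn was at -0.34 without passing.

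Markers of other cell types were checked in the same arrays. Of 5 B cell markers 4 were on the array and all were detected, with a summed linear signal of 2500 to 4049 on the IL-10+ arrays, 4242 to 5601 on the IL-10- arrays, and 3921 to 4761 on the total B arrays. Of 8 T cell markers 3 were detected, and all 3 rose, namely Cd2 (1.67 log2), the kinase Zap70 (at least 2.49-fold) and Cd3g (at least 1.09-fold). Cd3g lost its call without total B replicate 1, at adjusted p 0.144. Cd3e, Cd3d, Cd4, Cd8a and Trac were not detected on any of the 7 arrays, and the summed signal was 427.3 to 502 on the IL-10+ arrays, 269.1 to 305.4 on the IL-10- arrays, and 225.6 to 241.6 on the total B arrays.

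Of 8 macrophage markers 6 were detected, with summed signals of 2835 to 4158 on the IL-10+ arrays, 1069 to 1832 on the IL-10- arrays, and 1138 to 1564 on the total B arrays. Cd68, Adgre1 and Hmox1 averaged only 7.06, 5.86 and 5.60 log2 on the IL-10+ arrays, so the sum rests mostly on 1 gene, Mpeg1. Mpeg1, a pore-forming protein, rose by 1.59, a call lost without total B replicate 2 at adjusted p 0.0543, while Cd68, Adgre1, Hmox1 and Spic did not pass, and Csf1r and Marco were not detected. Some markers of red cells and platelets fell. The haemoglobin gene Hbb-b1 fell by 2.07 ± 0.28 log2 (SE), with summed erythroid signals of 258.3 to 388.3 on the IL-10+ arrays, 493.8 to 877.6 on the IL-10- arrays, and 1060 to 1236 on the total B arrays. The platelet gene Gp9 was at least 1.38-fold lower (adjusted p 0.0988 without total B replicate 2), with summed platelet signals of 98 to 109.9 on the IL-10+ arrays, 100.7 to 108.4 on the IL-10- arrays, and 194.4 to 302.2 on the total B arrays.

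Siglech, a marker of plasmacytoid dendritic cells, fell by 1.18 ± 0.18 log2 (SE), and Flt3, Itgax, Xcr1, Batf3 and Clec9a were not detected. Summed dendritic cell signals were 282.7 to 357.9 on the IL-10+ arrays, 496.4 to 526.4 on the IL-10- arrays, and 522.6 to 617.8 on the total B arrays. No neutrophil marker was detected. The NK marker Prf1 was at -0.81, the basophil marker Hdc at 0.39 and the endothelial marker Pecam1 at 0.22, all without passing, and their remaining markers on the array were not detected. The part of other cells in the differences was not tested.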

How the data were processed

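Gene expression was measured on Illumina MouseWG-6 V2 beadchips. The deposited table gives the mean bead intensity of each probe on a linear scale, exported without normalization from GenomeStudio 1.9.0, per the file headers. The authors' detection values are a score that grows with brightness, so the detection p was taken as 1 minus it. The sources used here do not say whether background had been subtracted before deposit, and the lowest signal of an array was 89.9 to 119.6. A second table holds the authors' processed log2 values of part of the probes, for which the submitters' processing notes name lumi. The sources used here do not give its filter or scaling. Its probe names could not be paired with the other table, so only counts were taken from it.

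From the intensities, background correction and quantile normalization were done in R 4.3.3 by limma 3.58.1 (neqc, offset 16). The kept probe with the highest mean over the 7 arrays stood for each gene, and 3531 genes had several. Of 30854 names, 16223 equalled a RefSeq symbol, 5706 were a synonym of a single gene, and 117 ambiguous and 8808 unmatched names were kept as they stood. The build behind the probes is not given in the files.

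All 10 arrays entered a single limma fit (lmFit, eBayes) with a mean per group and 7 residual degrees of freedom, two-sided, adjusted by Benjamini-Hochberg over 10947 genes at 0.05. Slide was used as a block and analysed within slide 2. The fit was also run on simulated data to check the code, and its outcome is not reported here and bears on no result. The comparison, the gene lists and their members were chosen with earlier results of these data known. Named genes are Il10, the 15 largest rises and 15 largest falls without overlap between the groups, up to 4 passing members of each list (2 where none passed) and all detected cell type markers. Genes with only a clone, LOC, Gm or Rik name, 530 of those called, were counted and not named. Other list members are named for completeness of their group. Some list members are counted but not reported by name here. Alternatives changed the background correction, the scaling, the filter, the probe summary, the block, the weights and the arrays included. Same-numbered IL-10+ and total B arrays lay on different slides, so the numbers were not taken to pair samples.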

Additional observations from a re-analysis of the deposited data

Results flagged for a closer look

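Of 146 values tested over the 5 IL-10+ arrays, 9 had an array standing apart from the other 4 by Dixon's test, which chance alone gives for about 1 in 20. The low arrays were IL-10+ replicate 3 for Ccng1 (9.8622 log2), replicate 2 for Cdc6 (6.81808) and Hbb-b1 (7.30008), replicate 4 for Hk1 (5.43924) and replicate 1 for Satb1 (12.8235). The high arrays were replicate 4 for Epb41l4b (6.14325) and replicate 5 for Hspa1a (5.3774), Hspa1b (5.57877) and the integrin Itgb7 (6.85157). Epb41l4b, Hspa1a, Hspa1b, Hk1 and Itgb7 have low levels in IL-10+ cells. Both copies of the inducible heat shock protein were high on the same array.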

How the results depend on the processing

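Under the alternatives by gene that kept all 7 arrays and under the slide 2 fit, 1956 to 2851 genes passed. Of these, 1035 to 1511 were higher and 884 to 1340 lower in IL-10+ cells. Testing every probe gave 3442 of 16152 probes, 1804 higher and 1638 lower. The highest gene counts came from using only the 7 arrays and the lowest changed count from a replicate block. That block, which rests only on numbers that do not pair the samples (deviations of same-numbered arrays correlated at -0.074 and -0.027), gave 1956 genes. Slide as a block gave 2460, slide 2 alone 2136, and the authors' processed values 2097 of its probes. With no filter 2185 of 28897 genes passed. Leaving out a single array gave 1037 to 2402 genes, 615 to 1295 higher and 422 to 1107 lower, and the low ends came from leaving out a total B array, which leaves a lone sample whose spread is taken from the other groups. The Il10 change ranged from 2.55 to 3.30 log2 and passed throughout. Of 132 named genes that passed, 71 passed in every alternative that tested them, and 7 of 12 that did not pass did so in some. The filter of detection on all 7 arrays left part of the named genes untested. Among genes that passed with all arrays, direction turned for 21 when a gene's probes were averaged, and for 1 each with median scaling, no filter and a detection score of 0.95. With 2 total B arrays and 688 genes not detected on either total B array and 113 not detected on any IL-10+ array, small changes of dim genes could not be measured.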

Other observations

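Immunoglobulin variable genes were grouped by name after their values had been seen. Of 34 heavy chain variable genes measured 3 rose (8.82%) and none fell, and of 23 kappa variable genes 10 rose (43.5%) and none fell, against 12.4% higher and 10.7% lower over all genes, with medians of 0.62 and 1.32 log2. Besides IGH-V11, the heavy chain genes that rose were IGHV12S1, by 1.26 ± 0.34 log2 (SE), and Ighv7-3, by 1.93 ± 0.34. The VH11 and VH12 segments are known from B-1 cell antibodies to phosphatidylcholine, where they pair with light chains of the Vk9 and Vk4 families. IGKV9-128 was at 12.55, 12.16, 12.76, 12.96 and 13.85 on the IL-10+ arrays, 10.03, 10.40 and 9.90 on the IL-10- arrays, and 11.23 and 10.42 on the total B arrays. It rose by 2.03 ± 0.38 log2 (SE), without overlap between IL-10+ and total B cells. IGKV4-91 was at 10.18, 10.09, 10.99, 10.53 and 11.20 on the IL-10+ arrays, 7.74, 8.12 and 7.22 on the IL-10- arrays, and 8.41 and 7.27 on the total B arrays, and it rose by 2.76 ± 0.38. IGKV4-53 rose by 2.97 log2, IGKV4-80 by 2.03 and IGKV9-120 by 1.65. The other 5 kappa genes that rose are of further families, namely IGKV8-31 by 1.61, IGK-V5 by 1.51, IGKV2-112 by 1.46, IGKV6-13 by 1.40 and IGKV2-137 by 1.26. IGHV12S1, IGKV9-128, IGKV9-120, IGK-V5, IGKV8-31, IGKV2-112, IGKV2-137 and IGKV6-13 each lost the call without one or the other total B array. Without total B replicate 1 the rises of IGHV12S1, IGKV2-112, IGKV2-137 and IGKV6-13 were 1.02, 1.12, 1.11 and 0.87 log2. Without total B replicate 2 those of IGKV9-128, IGKV9-120 and IGKV8-31 were 1.63, 1.45 and 1.23. Variable genes of a family are similar in sequence, so a probe may read several of them.

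Tubulin genes, also grouped afterwards by name, rose in 8 of 16 cases (50%) and fell in 1 (6.25%), against 12.4% and 10.7% of all genes. The 1 that fell, by 0.96 log2, was Tubgcp4, which is of the gamma-tubulin ring and was counted by its name. Tubb2b, Tubb4b, Tuba3a and Tuba1c rose by 1.45, 1.25, 1.23 and 0.97. Tuba1c was at 12.66 to 12.80 on the IL-10+ arrays, 12.84 to 12.93 on the IL-10- arrays, and 11.66 and 11.84 on the total B arrays, so both sorted fractions lay above total B cells. For Tuba1a, Tuba1b, Tuba3a, Tuba3b, Tubb2b and Tubb4b too, every IL-10- array lay above both total B arrays, and the sorted fractions overlapped. Tubb6 averaged 11.59 log2 in IL-10+, 8.36 in IL-10- and 7.84 in total B cells. Tuba1a, Tuba1b, Tuba3b and Tubgcp4 each lost the call without one or the other total B array. Without total B replicate 1 their changes were 0.80, 0.37, 0.46 and -0.88 log2. Interleukin receptor genes were grouped by name too, and Il1rn, a receptor antagonist and no receptor, was counted with them without passing. Of these 19 genes 6 rose (31.6%) and 2 fell (10.5%), against 12.4% and 10.7% of all genes. Among them Il10ra, the ligand-binding chain for IL-10 itself, was at least 2.77-fold higher, at 7.59, 7.31, 7.01, 6.42 and 6.93 on the IL-10+ arrays, 6.79, 6.49 and 6.57 on the IL-10- arrays, and 5.06 and 5.09 on the total B arrays, while the shared chain Il10rb fell by 0.66. Il10rb averaged 9.87, 9.84 and 10.53 log2 in IL-10+, IL-10- and total B cells. Its call was lost with slide as a block (limma adjusted p 0.118) and when either total B array was left out.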
